A study of Mus musculus with 33 samples.

Results

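The 10 genes described here encode the MHC class I pathway and a factor of cross-presentation: B2m, H2-K1, H2-D1, Tap1, Tap2, Tapbp, Psmb8, Psmb9, Erap1 and Wdfy4. They were chosen by symbol as listed genes of this pathway, and are 10 of the 24054 gene symbols in the count tables. All 10 passed the filter on low counts, which left 14258 genes for testing. RNA-seq was done on 33 libraries of sorted mononuclear phagocytes from kidney and spleen of C57BL/6 mice aged 10 weeks. All groups shared a genotype, Clec9a-Cre/Cre Rosa-YFP/YFP. Cre sits in Clec9a and is homozygous, as is the reporter, and YFP marks cells that expressed Cre, or whose precursors did. The spleen groups were red pulp macrophages (RPM, autofluorescent F4/80+ YFP-, 3 libraries), cDC2 (MHCII+ CD11c+ CD11b+ YFP+, 3 libraries) and cDC1 (MHCII+ CD11c+ CD24+ CD205+ YFP+, 3 libraries). Kidney cells were all CD45+ Ly6C- MHCII+, so an MHC class II protein was part of every kidney gate. Among them, CD64+ cells were split into F4/80hi CD11blow (3 libraries YFP-, 3 libraries YFP+) and F4/80low CD11bhi (2 libraries YFP-, 5 libraries YFP+). CD64- CD11c+ YFP+ kidney cells were split into CD11b+ cDC2 (5 libraries) and CD24+ cDC1 (6 libraries). No class I protein was used in any gate.

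Class I molecules show peptides from inside the cell to CD8 T cells. The proteasome cuts proteins into peptides, and Psmb8 and Psmb9, which encode LMP7 and LMP2, are among the catalytic subunits that turn it into the immunoproteasome. Tap1 and Tap2 form the transporter that carries peptides into the endoplasmic reticulum, where the aminopeptidase Erap1 trims them. Tapbp encodes tapasin, which links the transporter to empty class I molecules and edits their peptides. H2-K1 and H2-D1 are the classical class I heavy chains of these mice and B2m is the invariant light chain. Cross-presentation is the loading of class I with peptides from material the cell has taken up, a function for which type 1 conventional dendritic cells (cDC1) are known, and Wdfy4 is needed in mouse cDC1 for cross-presentation of cell-associated antigen.

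Gene counts summed to between 8729224 and 23000575 reads per library. Reads outside the gene counts made up between 22.6% and 64.0% of reads, the highest in CD11bhi YFP+ replicate 4. The labels do not say whether libraries of a group came from separate mice, so p-values measure the spread between libraries only. The cDC1 and macrophage markers were highest in the groups so labelled, whereas the cDC2 markers were not specific to cDC2. The 8 cDC1 markers summed to between 6505 and 8033 CPM (read counts scaled to library size) in kidney cDC1, to between 6731 and 6928 in spleen cDC1 and to between 155 and 289 in the cDC2 libraries. In RPM and F4/80hi libraries this sum was between 1522 and 2041. The 5 cDC2 markers summed to between 4605 and 5621 CPM in kidney cDC2 and to between 4668 and 6195 in CD11bhi YFP+ libraries. In spleen their sum was between 1687 and 2031 CPM in cDC2 and higher, between 2770 and 3675, in RPM, against 11.9 to 15.1 in cDC1. The 6 macrophage markers found in the files summed to between 16.6 and 53.4 CPM in kidney cDC1 and to between 267 and 411 in kidney cDC2. In CD11bhi YFP+ libraries the same sum was between 2280 and 4652, and in F4/80hi and RPM libraries it was between 19310 and 25240. Clec9a itself, which carries Cre, stayed between 0.359 and 2.49 CPM in kidney cDC1. The 6 kidney tubule markers summed to between 53.1 and 584 CPM in F4/80hi libraries and reached 728 in 1 kidney cDC1 library, and their part in the results was not tested. In these pooled RNA samples, fewer cells of a type and less RNA per cell cannot be told apart.

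A pair of libraries stood apart from the others of their groups, kidney cDC2 replicate 3 and kidney cDC1 replicate 4, which share a sort code. Their transcripts under 1000 bases exceeded those over 4000 bases, relative to their own group, by 1.42 and 1.44 on the log2 scale, against -0.70 to 0.69 in the other 31 libraries. The members span that range of lengths: RSEM's effective length was 757 bases for Psmb9, 809 for B2m and 1174 for Psmb8, and 3965 for Erap1 and 9632 for Wdfy4. Kidney cDC1 replicate 4 had the lowest Erap1 level of all libraries, 7.63 TPM (a level scaled to transcript length and library size), and the highest Psmb8 level, 2288 TPM. Results that rest on kidney dendritic cells were therefore also computed without this pair.

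Of the 10 genes, 7 lie on chromosome 17 in or near the MHC. On the GRCm38 assembly, Psmb9 (chr17:34181987-34187764, minus strand), Tap1 (chr17:34187553-34197225, plus strand), Psmb8 (chr17:34197721-34201454, plus strand) and Tap2 (chr17:34203527-34216321, plus strand) sit side by side within 34335 bases. The gene bodies of Psmb9 and Tap1 overlap by 212 bases, and because the libraries carry no strand information, reads in that overlap cannot be given to either gene. H2-K1 lies at chr17:33996017-34000347 (minus strand), Tapbp at chr17:33915899-33929292 (plus strand) and H2-D1 at chr17:35262730-35267499 (plus strand). B2m lies at chr2:122147686-122153083, Erap1 at chr13:74639568-74693201 and Wdfy4 at chr14:32959547-33185508 (minus strand). Proximal promoters are shown for examples of the opposite patterns described next: first the light chain and the heavy chains, whose mean TPM was lowest in kidney cDC1, then Tap1, Psmb8 and Wdfy4, whose mean TPM was highest in cDC1 of kidney or spleen. B2m in kidney and spleen cDC1 overlapped, and on CPM its lowest mean was in spleen cDC1. Each run holds the 250 bases before and the 50 bases after the RefSeq start on GRCm38.p6, read 5′ to 3′ on the gene's own strand. The windows are chr2:122147437-122147736 for B2m, chr17:34000298-34000597 (minus) for H2-K1, chr17:35262844-35263143 for H2-D1, chr17:34187306-34187605 for Tap1, chr17:34197945-34198244 for Psmb8 and chr14:33185017-33185316 (minus) for Wdfy4. Capitals mark matches on either strand to the motifs described after the sequences.
B2m: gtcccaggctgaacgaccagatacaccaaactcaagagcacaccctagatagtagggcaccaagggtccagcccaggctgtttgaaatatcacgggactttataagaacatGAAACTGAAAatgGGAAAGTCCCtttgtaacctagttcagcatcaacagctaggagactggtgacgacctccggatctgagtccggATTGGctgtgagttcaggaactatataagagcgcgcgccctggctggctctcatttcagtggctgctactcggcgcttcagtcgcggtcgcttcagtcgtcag
H2-K1: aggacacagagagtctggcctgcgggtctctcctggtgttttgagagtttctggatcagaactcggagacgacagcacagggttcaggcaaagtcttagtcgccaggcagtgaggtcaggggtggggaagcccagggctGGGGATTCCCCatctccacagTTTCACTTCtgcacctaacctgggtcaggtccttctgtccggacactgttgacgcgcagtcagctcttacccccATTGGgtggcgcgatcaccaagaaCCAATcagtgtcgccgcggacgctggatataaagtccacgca
H2-D1: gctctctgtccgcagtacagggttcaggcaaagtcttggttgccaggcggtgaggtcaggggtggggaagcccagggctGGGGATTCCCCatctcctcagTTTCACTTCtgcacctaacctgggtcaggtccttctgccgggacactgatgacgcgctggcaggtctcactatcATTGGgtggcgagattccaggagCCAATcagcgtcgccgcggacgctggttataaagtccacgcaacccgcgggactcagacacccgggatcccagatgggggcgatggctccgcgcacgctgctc
Tap1: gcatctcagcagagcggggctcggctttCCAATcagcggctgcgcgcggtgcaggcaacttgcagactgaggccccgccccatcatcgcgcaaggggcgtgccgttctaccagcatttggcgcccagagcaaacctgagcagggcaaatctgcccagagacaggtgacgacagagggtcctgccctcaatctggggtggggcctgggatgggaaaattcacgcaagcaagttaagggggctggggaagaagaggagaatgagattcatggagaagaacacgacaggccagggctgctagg
Psmb8: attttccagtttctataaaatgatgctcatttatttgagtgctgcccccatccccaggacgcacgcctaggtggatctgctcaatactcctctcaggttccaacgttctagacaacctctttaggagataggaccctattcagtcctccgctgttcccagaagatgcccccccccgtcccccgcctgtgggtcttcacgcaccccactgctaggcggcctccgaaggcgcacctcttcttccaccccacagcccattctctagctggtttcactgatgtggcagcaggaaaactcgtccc
Wdfy4: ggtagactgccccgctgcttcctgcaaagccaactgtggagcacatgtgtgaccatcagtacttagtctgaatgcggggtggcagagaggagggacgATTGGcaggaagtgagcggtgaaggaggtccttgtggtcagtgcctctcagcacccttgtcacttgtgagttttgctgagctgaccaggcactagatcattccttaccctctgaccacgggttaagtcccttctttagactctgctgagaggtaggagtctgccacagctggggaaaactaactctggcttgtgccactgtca

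The motifs were chosen after the sequences had been read, and windows were at hand for 9 of the 10 genes, Tap2 not being analysed here. The core of the interferon-stimulated response element, searched as GAAA followed after a gap of 2 bases by another GAAA, matched in B2m and Erap1, and in 3.44% of 32851 promoter windows of the same length. GAANTGAAA, a closely spaced pair of interferon regulatory factor half-sites, matched in H2-K1 and H2-D1, and in 1.83% of all windows. The NF-kappaB site matched in B2m, H2-K1 and H2-D1, and in 4.51% of all windows; in H2-K1 and H2-D1 the match was found on both strands at the same place. ATTGG, the inverted CCAAT box, matched in 7 of the 9 windows and in 37.4% of all windows. A composite of interferon regulatory factor and AP-1 half-sites, searched as TTTC followed after a gap of 4 bases by TGA, matched in 0 of the 9 windows and in 4.56% of all windows. The windows of H2-K1 and H2-D1 share a run of 47 identical bases, and those of Tap1 and Psmb9 share 275 bases on opposite strands. A match is a match of letters and no evidence of binding.

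Levels across the 9 populations are given first, in TPM, which is scaled by transcript length so that genes can be set beside each other. The light chain was the most abundant member in every population and Wdfy4 or Erap1 the scarcest. B2m means ran from 13200 ± 847 TPM (SD, n = 3) in F4/80hi YFP- cells to 6238 ± 387 (SD, n = 6) in kidney cDC1. Its order was F4/80hi YFP-, F4/80hi YFP+, RPM, CD11bhi YFP+, CD11bhi YFP-, spleen cDC2, kidney cDC2, spleen cDC1 and kidney cDC1. In that order, library ranges of neighbours were separate only between F4/80hi YFP+ and RPM and between spleen cDC2 and kidney cDC2. On TPM, B2m means were thus highest in F4/80hi cells and RPM and lowest in both kinds of cDC1, with kidney cDC2 overlapping spleen cDC1. On CPM, spleen cDC2 and kidney cDC1 had nearly the same mean, 3991 and 3995.

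The heavy chain H2-K1 was lowest in kidney cDC1, with a lowest value of 1471 TPM, a median of 1648 and a highest value of 1770 over the 6 libraries. Kidney cDC2 libraries held 2322, 2716, 2059, 2022 and 2135 TPM. On TPM, all 6 kidney cDC1 libraries were below all 5 kidney cDC2 libraries and below every library of the other groups. On CPM the kidney cDC1 mean was still lowest, at 1924, but its libraries, at 1498 to 2659, overlapped with spleen cDC1, at 1929 to 2344. The fitted log2 fold of H2-K1 in kidney against spleen cDC1 was -0.09 (edgeR adjusted p = 0.760). The highest mean was 2938 ± 333 TPM (SD, n = 3) in F4/80hi YFP- cells, 1.79-fold above kidney cDC1, and the 8 other populations overlapped with their neighbours in the order.

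H2-D1 had the same lowest population. Kidney cDC1 libraries ran from 2120 to 2733 TPM with a median of 2302, and kidney cDC2 libraries held 3199, 3890, 3022, 3659 and 3057 TPM, so the groups did not overlap. Spleen cDC1 libraries held 3862, 3710 and 3272 TPM and spleen cDC2 libraries 3899, 3544 and 3313 TPM, which overlapped fully. On CPM the kidney cDC1 libraries, at 754 to 1740, overlapped with spleen cDC1, at 1160 to 1407. The fitted log2 fold of H2-D1 in kidney against spleen cDC1 was -0.16 (edgeR adjusted p = 0.618). The level of H2-D1 depends on how reads shared with its paralogs are counted: RSEM gave it between 3.01 and 3.26 times the reads that STAR did, whereas for the other 9 members this ratio was between 0.886 and 1.05. STAR's gene counts hold no reads that map to several places, and they gave 0 reads to the related gene H2-L and 1 read to H2-Q7 over all libraries. H2-D1 levels are uncertain to that extent, and folds between populations are given from STAR counts unless said otherwise.

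The peptide transporter and the immunoproteasome subunits Psmb8 and Psmb9 instead had both cDC1 populations on top, though the other populations did not follow a reversed order. Tap1 held 394, 438 and 386 TPM in spleen cDC1. In kidney cDC1 it ran from 208 to 374 TPM with a median of 306, and in kidney cDC2 the libraries held 134, 178, 97.5, 118 and 108 TPM. Spleen cDC2 libraries held 212, 189 and 152 TPM, and RPM libraries, the lowest group, 81.1, 83.6 and 115 TPM. All cDC1 libraries were above every cDC2 library of its own tissue, and the mean ran over 4.37-fold from spleen cDC1 to RPM. Tap2, its partner, ran from 310 ± 28.3 TPM (SD, n = 3) in spleen cDC1 and 221 ± 33.0 (SD, n = 6) in kidney cDC1 down to 114 ± 19.3 (SD, n = 3) in RPM. Between these, the 6 other populations had Tap2 means from 115 to 169 TPM, with overlapping library ranges.

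Psmb9 held 1592, 1489 and 1549 TPM in spleen cDC1 and ran from 1245 to 1893 TPM, with a median of 1509, in kidney cDC1. Kidney cDC2 libraries held 447, 610, 632, 434 and 434 TPM, and spleen cDC2 libraries 702, 642 and 650 TPM. The highest cDC2 library in either tissue was below the lowest cDC1 library. F4/80hi cells had the lowest Psmb9, between 317 and 357 TPM in all 6 libraries. Psmb8 was highest in kidney cDC1, from 1599 to 2288 TPM with a median of 1656, and lower in spleen cDC1, at 1442, 1372 and 1334 TPM. Kidney cDC2 libraries held 773, 961, 1190, 842 and 805 TPM of Psmb8, and the F4/80hi YFP+ libraries 591, 528 and 490 TPM.

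Wdfy4 had the widest range of the members, 17.8-fold between population means. Spleen cDC1 libraries held 127, 159 and 217 TPM, and kidney cDC1 ran from 56.1 to 159 TPM with a median of 119. Spleen cDC2 held 80.6, 77.1 and 100 TPM and kidney cDC2 69.3, 54.7, 21.5, 30.9 and 45.4 TPM. CD11bhi YFP+ libraries held 14.8, 20.6, 17.7, 24.9 and 21.7 TPM, and F4/80hi YFP+ libraries 6.66, 7.51 and 14.5 TPM. The order of its means was spleen cDC1, kidney cDC1, spleen cDC2, kidney cDC2, CD11bhi, RPM and F4/80hi cells, an order in which only spleen cDC2 and kidney cDC2 were neighbours with separate library ranges. Kidney cDC1 overlapped with kidney cDC2 only through kidney cDC1 replicate 4, at 56.1 TPM. Tapbp and Erap1 varied least in this way: Tapbp means ran from 415 TPM in spleen cDC1 to 245 in kidney cDC2, and Erap1 means from 49.7 TPM in spleen cDC2 to 31.3 in kidney cDC2.

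**Figure D1:**
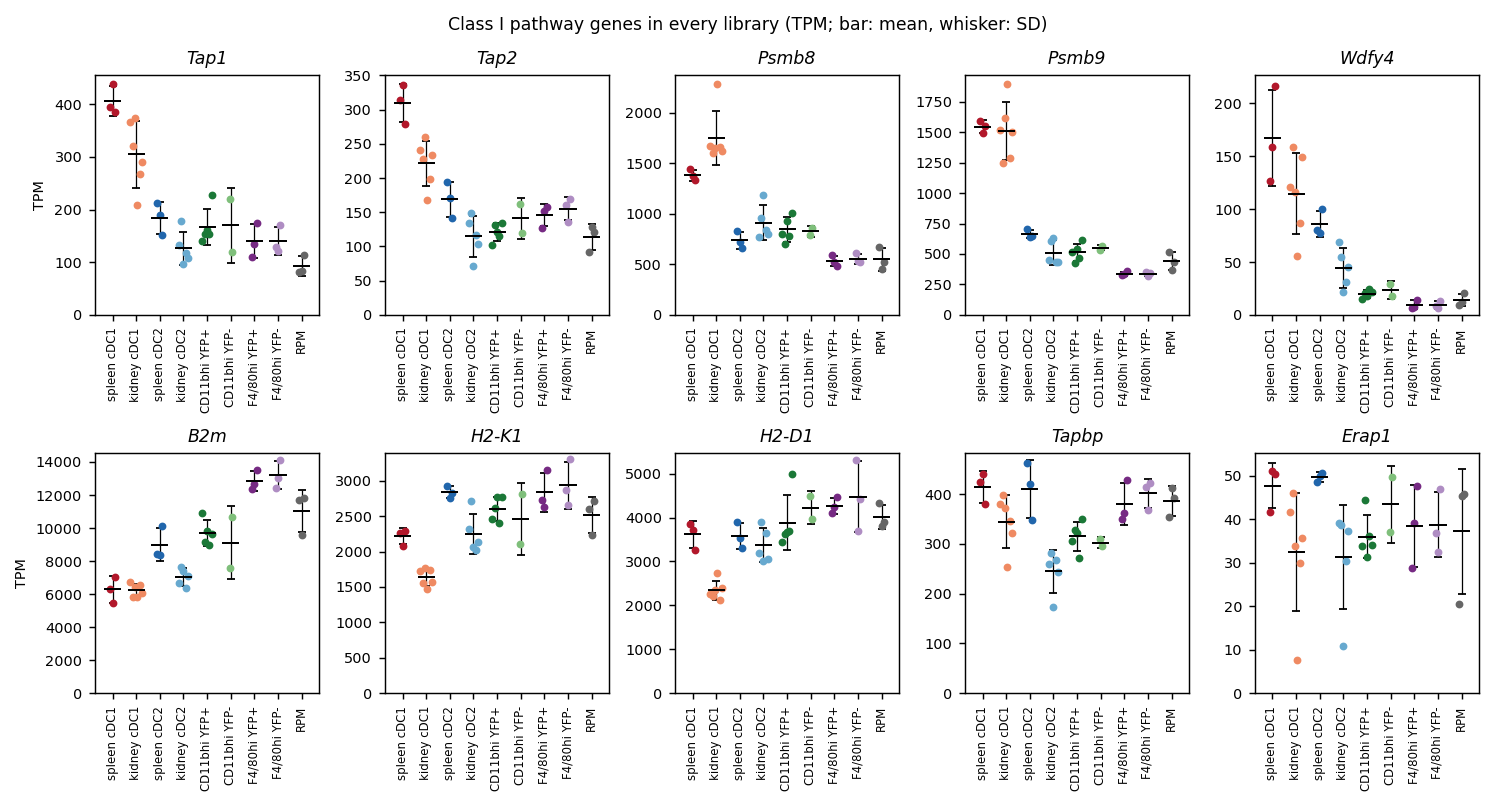
Level of each of the 10 genes in every library, in TPM on linear axes that start at 0. Points are libraries, bars are population means and whiskers SDs. Tap1, Tap2, Psmb8, Psmb9 and Wdfy4 were highest in the cDC1 groups. B2m, H2-K1 and H2-D1 had their lowest mean TPM in kidney cDC1, where H2-K1 did not exceed 1770 TPM.

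Within kidney, cDC1 were compared with cDC2 to ask which steps of the pathway differ between these dendritic cell types. Kidney cDC1 had more Psmb8, Psmb9, transporter and Wdfy4 transcript than kidney cDC2 and less of both heavy chains. Of the 10 members 6 were called higher, where 12.5% of all genes tested were, and 2 were called lower, where 15.4% were. A call is an adjusted p under 0.05 in edgeR's quasi-likelihood test with Benjamini-Hochberg adjustment over all genes, and the median member fold was 0.64 (log2), against -0.02 for all genes. Folds come from counts scaled by trimmed means of M-values (TMM).

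Psmb9 changed most, 2.80-fold higher in kidney cDC1 (log2 fold 1.49 ± 0.21 SE, edgeR adjusted p = 1.67e-06, n = 6 and 5). Wdfy4 was 2.42-fold higher (1.28 ± 0.21 SE, edgeR adjusted p = 1.72e-05) and Tap1 2.21-fold higher (1.14 ± 0.14 SE, edgeR adjusted p = 2.98e-07). Psmb8 was 1.85-fold and Tap2 1.83-fold higher (0.89 ± 0.21 and 0.87 ± 0.11 SE, edgeR adjusted p = 0.00202 and 1.26e-07). Tapbp rose by a smaller amount, 1.32-fold (0.40 ± 0.09 SE, edgeR adjusted p = 0.00124). The heavy chains fell: H2-D1 was 1.51-fold lower (-0.59 ± 0.16 SE, edgeR adjusted p = 0.00592) and H2-K1 1.49-fold lower (-0.57 ± 0.13 SE, edgeR adjusted p = 0.00126). B2m and Erap1 were not called, with log2 folds of -0.25 (95% interval -0.56 to 0.05) and -0.12 (-0.51 to 0.28). On the CPM scale the ranges of Psmb8, H2-K1 and H2-D1 overlapped through the pair of libraries that stood apart: Psmb8 was at 1696 CPM in kidney cDC2 replicate 3, and H2-K1 and H2-D1 were at 2659 and 1740 CPM in kidney cDC1 replicate 4. None of the 10 members gained or lost its call when any 1 library, or that pair, was left out.

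In spleen, cDC1 had higher levels of Psmb9, Tap1, Wdfy4, Psmb8 and Tap2 than cDC2, and no heavy chain or light chain call. The count was 5 higher, where 9.88% of all genes were, and 0 lower, where 10.7% were, with 6 members at an unadjusted p under 0.05. Psmb9 was 2.82-fold higher in spleen cDC1 (SE of the log2 fold 0.28, edgeR adjusted p = 0.000137, n = 3 and 3) and Tap1 2.67-fold higher (1.42 ± 0.19 SE, edgeR adjusted p = 1.70e-06). Wdfy4, Psmb8 and Tap2 were 2.36-, 2.28- and 2.23-fold higher (edgeR adjusted p = 0.00118, 0.00271 and 2.87e-07). On log2(TPM + 0.1), Wdfy4 lost its call (0.93, limma adjusted p = 0.0541). Tapbp had a log2 fold of 0.30 and was not called (edgeR adjusted p = 0.0908), and with the sort code as a block, which pairs the spleen libraries, it was called (edgeR adjusted p = 0.0158). The heavy chains and B2m were not called in spleen, with log2 folds of 0.27 for H2-D1, -0.09 for H2-K1 and -0.23 for B2m, and on log2(TPM + 1) B2m and H2-K1 were called lower in cDC1 (-0.52 and -0.36). With only the spleen dendritic cell libraries in the fit, H2-D1 was called higher (0.28, edgeR adjusted p = 0.0458), as was Tapbp (0.31, edgeR adjusted p = 0.0411).

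Whether the difference between the cDC types itself differed between tissues was tested as an interaction. None of the 10 members was called in edgeR's quasi-likelihood test, where 6.26% of all genes were, and 2 members had an unadjusted p under 0.05. For the genes high in cDC1 the kidney minus spleen difference of log2 folds was -0.01 for Psmb9 (95% interval -0.67 to 0.65), 0.04 for Wdfy4 (-0.63 to 0.70), -0.28 for Tap1 (-0.74 to 0.19), -0.28 for Tap2 (-0.62 to 0.06) and -0.30 for Psmb8 (-0.99 to 0.39). These intervals are wide against the folds themselves. H2-D1 came nearest to a call, with a difference of -0.87 ± 0.27 SE (edgeR adjusted p = 0.0562), and H2-K1 had -0.48 ± 0.22 SE (edgeR adjusted p = 0.261). H2-D1 was called by DESeq2, on RSEM expected counts and on log2(TPM + 1), with differences of -0.84, -0.86 and -0.53. With the sort code as a block it was called at -0.74 (edgeR adjusted p = 0.010). It was also called without kidney cDC2 replicate 5 (-0.95), without kidney cDC1 replicate 4 (-1.08) and without the pair that stood apart (edgeR adjusted p = 0.00253).

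**Figure D2:**
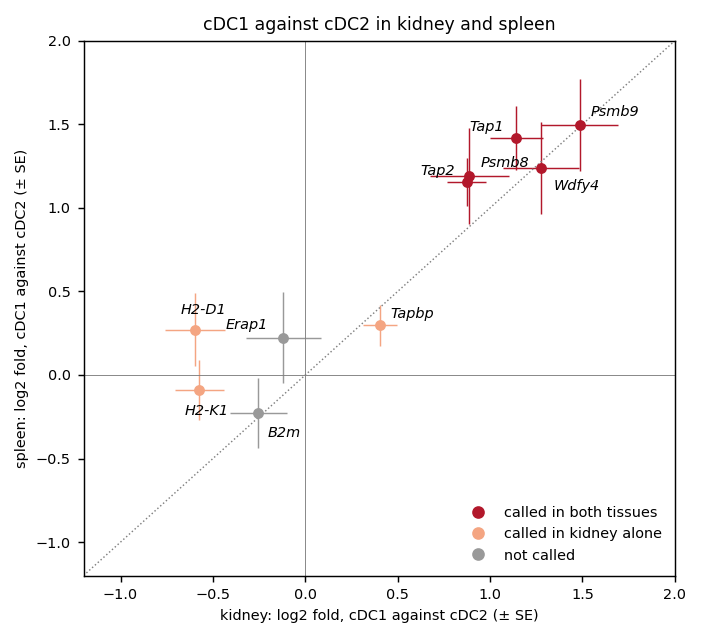
Log2 fold of each member in cDC1 against cDC2 in kidney (x axis) and spleen (y axis), with standard errors as whiskers. Colours give the call and the dotted line marks equal folds. Psmb9, Tap1, Wdfy4, Psmb8 and Tap2 were called in both tissues. Tapbp, at 0.40 in kidney, and H2-K1 and H2-D1, at -0.57 and -0.59, were called in kidney only. The interaction was called for no member.

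The opposite directions can be set against each other within a library as ratios of TPM, as a description. For each transcript of H2-K1 there were 0.184 of Tap1 in spleen cDC1 and 0.183 in kidney cDC1, as means over libraries on the log scale. The other 7 populations had between 0.0371 and 0.0672. For each transcript of B2m there were 0.247 of Psmb9 in spleen cDC1, 0.240 in kidney cDC1 and between 0.0257 and 0.0743 elsewhere. The cDC1 populations of kidney and spleen were close to each other in these ratios and apart from all others.

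Each immunoproteasome subunit replaces a constitutive one: Psmb8 replaces Psmb5, Psmb9 replaces Psmb6 and Psmb10 replaces Psmb7. The mean of the 3 log2 TPM ratios (pseudocount 1) was 1.37 ± 0.05 (SD, n = 6) in kidney cDC1 and 1.27 ± 0.16 (SD, n = 5) in kidney cDC2. The difference of 0.10 was within the spread between libraries (two-sided exact permutation test, p = 0.191, smallest possible 0.00433). It was decided by kidney cDC2 replicate 2, without which it was 0.17 (exact p = 0.00952), and it was -0.06 among libraries of the BS prefix alone. Taken singly, after these values had been seen, the ratios went opposite ways. Psmb9 over Psmb6 was higher in kidney cDC1 by 0.87, with libraries from 1.67 to 2.05 against 0.67 to 1.29 in cDC2 (exact p = 0.00433, adjusted over 3 ratios 0.00649). Psmb10 over Psmb7 was lower by 0.69, with libraries from -0.51 to -0.0047 against 0.03 to 0.74 (exact p = 0.00433, adjusted 0.00649). Psmb8 over Psmb5 differed by 0.13 (exact p = 0.113). Without the pair of libraries that stood apart the differences for the same ratios were 0.82, -0.69 and 0.09.

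The counts show which subunit moved. Psmb7 was higher in kidney cDC1 than in cDC2 (log2 fold 0.97 ± 0.15 SE, edgeR adjusted p = 8.25e-06), as were Psmb5 and Psmb6 (0.80 and 0.65, edgeR adjusted p = 0.0194 and 0.0355). Psmb10 was not called (0.27 ± 0.23 SE, edgeR adjusted p = 0.436). In spleen, Psmb7 was again higher in cDC1 (1.13 ± 0.20 SE, edgeR adjusted p = 7.64e-05) and Psmb10 was not called (log2 fold -0.0031, edgeR adjusted p = 1.0). The Psmb10 to Psmb7 ratio was below 0 on the log2 scale in all 9 cDC1 libraries and above 0 in all 24 others.

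**Figure D3:**
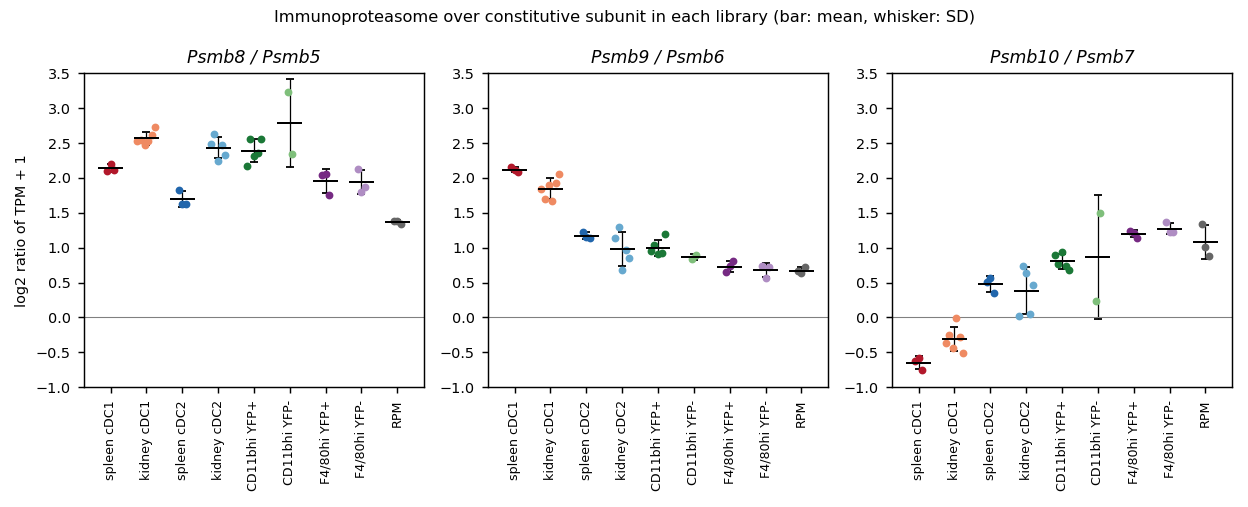
Log2 ratio of TPM + 1 of each immunoproteasome subunit to the constitutive subunit it replaces, per library (points), with population means (bars) and SDs (whiskers). The cDC1 libraries are highest for Psmb9 over Psmb6 and lowest for Psmb10 over Psmb7, where all of them lie below 0.

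Kidney dendritic cells were compared with their spleen counterparts to ask whether tissue changes the pathway. Between the cDC1 populations, 1 member was called higher in kidney, where 13.2% of all genes were, and 0 lower, where 8.36% were (4 members had an unadjusted p under 0.05 in edgeR). That gene was Psmb8, 1.89-fold higher (log2 fold 0.92 ± 0.27 SE, edgeR adjusted p = 0.0174, n = 6 and 3). It lost the call without spleen cDC1 replicate 2 (0.80), spleen cDC1 replicate 3 (0.85) or kidney cDC1 replicate 4 (0.52), and its fold was 0.37 without the pair that stood apart (edgeR adjusted p = 0.246). Without that pair, H2-D1 and Tap2 were called lower in kidney cDC1 instead (-0.57 and -0.42, edgeR adjusted p = 0.0252 and 0.0265). With the sort code as a block, Erap1 and Wdfy4 were called lower in kidney cDC1 (-0.74 and -0.45, edgeR adjusted p = 0.0118 and 0.0041). Both were also called lower without kidney cDC1 replicate 6 (-0.83 and -0.79), and Erap1 by DESeq2 (-0.67, adjusted p = 0.037). Between the cDC2 populations 2 members were called higher in kidney, where 19.1% of all genes were, and 0 lower, where 11.9% were (5 members had an unadjusted p under 0.05). Psmb8 was 2.32-fold higher in kidney cDC2 (1.22 ± 0.28 SE, edgeR adjusted p = 0.00133, n = 5 and 3). Its log2 fold was 0.69 without the pair that stood apart (edgeR adjusted p = 0.0125), and on log2(TPM + 1) it was 0.35 and not called (limma adjusted p = 0.0551). H2-D1 was 1.63-fold higher (0.70 ± 0.21 SE, edgeR adjusted p = 0.0124), lost the call without spleen cDC2 replicate 2 (0.63), spleen cDC2 replicate 3 (0.59) or kidney cDC2 replicate 3 (0.57), and had a log2 fold of -0.10 on log2(TPM + 1). With the sort code as a block, which pairs these libraries, H2-K1 (0.35, edgeR adjusted p = 0.0272) and Wdfy4 (-0.69, edgeR adjusted p = 3.66e-05) were called too.

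The scale decides these tissue comparisons. On log2(TPM + 1) the median of all genes moved by -0.27 in cDC1 and -0.55 in cDC2 relative to the count model, and 7 and 8 members were called, all lower in kidney. Tap1, at 0.00 in the count model for cDC2, was -0.75 on log2(TPM + 1), where the median of all genes was -0.42. In the count model and on both TPM scales, Psmb8 was above 0 and Wdfy4, Erap1 and Tapbp were below 0 in both comparisons, whether called or not. For cDC2, B2m, H2-K1, H2-D1, Psmb9, Tap1 and Tap2 changed sign with the scale, and no direction is given for them.

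Macrophages and dendritic cells were compared in each tissue. F4/80hi YFP+ kidney macrophages had less Wdfy4, Psmb8, Psmb9 and transporter transcript than kidney cDC1 and more B2m and heavy chain. The counts were 5 lower, where 21.0% of all genes were, and 3 higher, where 19.8% were. Wdfy4 was 11.3-fold lower than in kidney cDC1 (log2 fold -3.50 ± 0.29 SE, edgeR adjusted p = 9.54e-11, n = 3 and 6). Psmb9 was 5.68-fold, Psmb8 4.39-fold, Tap1 2.24-fold and Tap2 1.62-fold lower (edgeR adjusted p = 2.21e-08, 6.33e-07, 8.69e-06 and 0.000107). B2m was 1.68-fold and H2-K1 1.48-fold higher (edgeR adjusted p = 0.00275 and 0.00704). H2-D1 was 1.44-fold higher (edgeR adjusted p = 0.0390) and lost the call without F4/80hi YFP+ replicate 1 (log2 fold 0.55), kidney cDC1 replicate 5 (0.42) or kidney cDC1 replicate 6 (0.44).

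Against kidney cDC2 the same macrophages differed less. The counts were 3 lower, where 17.2% of all genes were, and 1 higher, where 12.5% were. Wdfy4 was 4.66-fold lower (log2 fold -2.22 ± 0.28 SE, edgeR adjusted p = 3.52e-07, n = 3 and 5), Psmb8 2.37-fold lower and Psmb9 2.03-fold lower (edgeR adjusted p = 0.000919 and 0.00357). Tapbp was 1.33-fold higher (edgeR adjusted p = 0.00749). With only the libraries compared in the fit, Psmb9 and Tapbp were not called (-0.97 and 0.42, edgeR adjusted p = 0.0517 and 0.108). Tap1 and Tap2 were not called, with log2 folds of -0.02 (95% interval -0.37 to 0.33) and 0.18 (-0.08 to 0.44). B2m, at 0.49 (edgeR adjusted p = 0.0575), was not called in edgeR's test across all groups, with no filter on low counts, from the libraries compared alone, or without any 1 library other than kidney cDC2 replicate 3. It was called higher in macrophages under the other alternatives, apart from the added log2 fold minimum of 1: DESeq2 (0.54, adjusted p = 0.024), size factors by relative log expression, library size alone, RSEM counts, both TPM scales (0.88), no prefix term, the sort code as a block, and the fits without kidney cDC2 replicate 3 (0.73, edgeR adjusted p = 0.00539) or without the pair that stood apart (0.78, edgeR adjusted p = 0.00128). All comparisons with kidney cDC1, kidney cDC2 or F4/80hi YFP+ cells here share those libraries.

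CD11bhi YFP+ cells, which are CD64+ but carry fewer macrophage transcripts, differed from kidney cDC2 by a called amount in Wdfy4 and in no other member. Against cDC2 the count was 1 lower, where 1.6% of all genes were, and 0 higher, where 1.97% were (2 members had an unadjusted p under 0.05). Wdfy4 was 2.86-fold lower (log2 fold -1.51 ± 0.24 SE, edgeR adjusted p = 0.000116, n = 5 and 5), and its libraries, at 14.8 to 24.9 TPM against 21.5 to 69.3, overlapped only through kidney cDC2 replicate 3. The 95% intervals of the other members reached at most 0.78 (B2m) upward and -0.67 (Erap1) downward on the log2 scale. Against kidney cDC1 the counts were 5 lower, where 9.9% of all genes were, and 3 higher, where 15.0% were. Wdfy4 was 6.92-fold lower (-2.79 ± 0.24 SE), Psmb9 2.81-fold, Tap1 2.07-fold, Tap2 2.04-fold and Psmb8 1.90-fold lower (edgeR adjusted p from 1.71e-10 to 0.00389). H2-D1, B2m and H2-K1 were 1.70-, 1.59- and 1.57-fold higher (edgeR adjusted p = 0.00231, 0.00486 and 0.00158).

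In spleen, RPM against cDC1 gave 5 members lower, where 17.8% of all genes were, and 1 higher, where 19.5% were. Wdfy4 was lower by the widest margin (log2 fold -3.47 ± 0.30 SE, edgeR adjusted p = 1.54e-10, n = 3 and 3) and Tap1 4.02-fold lower (-2.01 ± 0.20 SE, edgeR adjusted p = 1.90e-09). Psmb9, Tap2 and Psmb8 were 3.15-, 2.52- and 2.24-fold lower, and B2m was 1.92-fold higher (edgeR adjusted p = 0.000606). No call in this comparison changed when any 1 library was left out. Against spleen cDC2, RPM had 2 members lower, where 19.5% of all genes were, and 3 higher, where 20.6% were. Wdfy4 and Tap1 were lower (log2 folds -2.23 and -0.59, edgeR adjusted p = 2.73e-07 and 0.0146), and B2m was 1.64-fold, H2-D1 1.47-fold and Tapbp 1.25-fold higher (edgeR adjusted p = 0.00711, 0.0437 and 0.0364). On log2(TPM + 1) Tapbp was at -0.08. Of these 5, the Wdfy4 call alone held whichever library was left out. Without RPM replicate 1 the log2 folds of B2m, H2-D1 and Tapbp were 0.53, 0.35 and 0.26, all not called. RPM replicate 1 shares the sort code of the pair of libraries that stood apart. Its short transcripts exceeded its long ones by 0.69 (log2, relative to its group), against -0.35 in RPM replicates 2 and 3. Whether this skew has a part in these calls was not tested. Tap1 was not called without RPM replicate 2 (-0.48) or spleen cDC2 replicate 1 (-0.53). H2-D1 was not called without spleen cDC2 replicate 1, 2 or 3 (0.57, 0.52 and 0.48), and Tapbp was not called without RPM replicate 2 (0.32), spleen cDC2 replicate 2 (0.32) or spleen cDC2 replicate 3 (0.20).

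**Figure D4:**
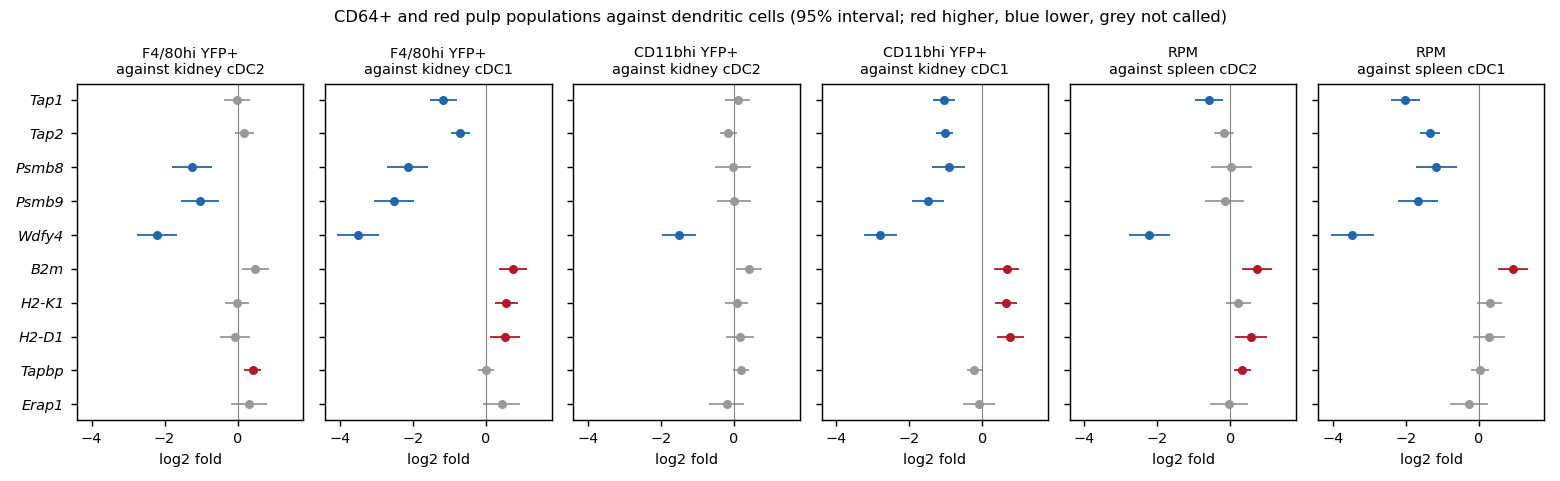
Log2 fold of each member, with its 95% interval, in F4/80hi YFP+ cells, CD11bhi YFP+ cells and RPM against the dendritic cells of the same tissue. Red is called higher, blue called lower and grey not called. Wdfy4 was lower in all 6 comparisons, from -3.50 to -1.51, whereas the intervals of Tap1 and Tap2 include 0 in both kidney comparisons with cDC2.

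Populations of F4/80+ or CD64+ cells were also compared with each other. F4/80hi YFP- cells against RPM had 2 members called higher, where 14.4% of all genes were, and 0 lower, where 13.4% were (3 members had an unadjusted p under 0.05). These were Tap1, 1.48-fold higher, with 130, 121 and 171 TPM against 81.1, 83.6 and 115, and Tap2, 1.34-fold higher (edgeR adjusted p = 0.0276 and 0.0229, n = 3 and 3). Tap1 lost its call without RPM replicate 1 (0.57), RPM replicate 2 (0.45) or F4/80hi YFP- replicate 3 (0.48), and Tap2 without RPM replicate 1 (0.38), RPM replicate 3 (0.43) or F4/80hi YFP- replicate 1 (0.39). CD11bhi YFP+ against F4/80hi YFP+ cells gave 2 members higher, where 10.9% of all genes were, and 0 lower, where 5.91% were (4 members had an unadjusted p under 0.05). Psmb8 was 2.32-fold and Psmb9 2.02-fold higher (log2 folds 1.21 ± 0.34 and 1.02 ± 0.32 SE, edgeR adjusted p = 0.0126 and 0.0275, n = 5 and 3).

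Library names begin with BS or GS, a prefix whose meaning is not given in the sources used here. All CD11bhi libraries carry BS and all F4/80hi libraries GS, so here prefix and population cannot be told apart from these groups alone, and the fit estimates the prefix term from kidney dendritic cells. Without that term Psmb8 and Psmb9 were at 0.60 and 0.55 and not called, and Wdfy4 was called higher in CD11bhi YFP+ cells (1.05, edgeR adjusted p = 0.00452). Wdfy4 was not called with the term (0.71, edgeR adjusted p = 0.134), although its CPM ranges did not overlap, and it was called from the libraries compared alone (1.04, edgeR adjusted p = 0.00386) and with the sort code as a block (0.73, edgeR adjusted p = 0.000424). They were also not called without F4/80hi YFP+ replicate 3 (1.06 and 0.97), nor Psmb9 without F4/80hi YFP+ replicate 2 (0.95). B2m shows the same dependence: its CPM ranges did not overlap, at 4813 to 6383 in CD11bhi YFP+ and 6986 to 8132 in F4/80hi YFP+ libraries, yet its fitted log2 fold was -0.08.

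The YFP label was tested within each CD64+ gate. In F4/80hi cells none of the 10 members was called in edgeR's quasi-likelihood test, where 0.00701% of all genes were, and 0 had an unadjusted p under 0.05. In CD11bhi cells none was called either, where 6.85% of all genes were, and 0 had an unadjusted p under 0.05. DESeq2 and limma also called 0 members in both gates. Wdfy4, the member that differed most between cell types, held 6.66, 7.51 and 14.5 TPM in F4/80hi YFP+ and 8.23, 6.32 and 13.7 TPM in F4/80hi YFP- libraries. In CD11bhi cells it held 14.8 to 24.9 TPM in YFP+ and 29.7 and 17.7 TPM in YFP- libraries. The groups overlapped in both gates. The 95% intervals of the log2 folds reached at most 0.59 (Wdfy4) and -0.57 (Psmb8) in F4/80hi cells, and 0.60 (Psmb8) and -0.83 (Erap1) in CD11bhi cells, so differences within those bounds could not be told from 0.

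Other genes of the pathway were taken as lists of 30 class I genes, 20 cross-presentation genes and 11 interferon response genes, chosen with earlier results of these data known. Of 28 class I pathway genes tested in kidney cDC1 against cDC2, 10 were higher and 5 lower, where 12.5% and 15.4% of all genes were, with a median log2 fold of 0.16 against -0.02 for all genes. Among those higher were the peptide-loading chaperones Pdia3 (1.01 ± 0.13 SE, edgeR adjusted p = 3.06e-07) and Calr (0.49 ± 0.10 SE, edgeR adjusted p = 0.000401). The proteasome activator subunit Psme1 (1.07 ± 0.16 SE, edgeR adjusted p = 5.72e-06) and the lipid-presenting molecule Cd1d1 (1.62 ± 0.16 SE, edgeR adjusted p = 4.18e-09) were higher too. The 10 higher also include Psmb5, Psmb6 and Psmb7, the constitutive subunits that the immunoproteasome subunits replace. The 5 lower in kidney cDC1 were H2-T24, Mr1, Rfx5, Irf1 and Irf2. Nlrc5, the transactivator of class I genes, was not called, with 14.1 ± 6.26 TPM (SD, n = 6) in kidney cDC1 and 11.96 ± 6.15 (SD, n = 5) in kidney cDC2. In spleen 7 of the 28 were higher and 3 lower, where 9.88% and 10.7% of all genes were, with a median of 0.18, and Pdia3 and Calr had folds of 1.81 and 1.29 there. Cd1d1 was at 2.05 in spleen, and H2-T24, a non-classical class I gene, was lower (-1.34). For both chaperones the difference between tissues was itself called, at -0.79 ± 0.21 SE for Pdia3 and -0.80 ± 0.17 SE for Calr (edgeR adjusted p = 0.0172 and 0.00208).

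Of the 20 cross-presentation genes, 9 were higher and 4 lower in kidney cDC1 against cDC2 (12.5% and 15.4% of all genes), with a median of 0.46. In spleen 8 were higher and 3 lower (9.88% and 10.7% of all genes), with a median of 0.49. Xcr1, Irf8, Batf3 and Clec9a on this list are also cDC1 markers. All 4 are among the 9 called higher in kidney, and Xcr1 and Irf8 among the 8 in spleen, so these counts in part restate cell identity. Xcr1, a chemokine receptor, and Irf8, a lineage transcription factor, had log2 folds of 7.49 and 6.79 in kidney. Mpeg1, a pore-forming protein of phagosomes, had 2.22 ± 0.34 SE in kidney and 5.05 ± 0.51 SE in spleen, and this difference was itself called (-2.84, edgeR adjusted p = 0.000816). Cybb, the catalytic subunit of the phagocyte NADPH oxidase, was lower, at 13.3 ± 4.7 CPM (SD, n = 6) in kidney cDC1 and 828.6 ± 164 (SD, n = 5) in kidney cDC2 (-5.98 ± 0.23 SE, edgeR adjusted p = 4.30e-18). Rab43, a small GTPase, was higher in both tissues (0.71 and 1.22, edgeR adjusted p = 9.21e-05 and 4.09e-06). Apol7c, an apolipoprotein L family member, had 1500 ± 156 TPM (SD, n = 3) in spleen cDC1 and 46.9 ± 25.0 (SD, n = 6) in kidney cDC1, and was called against cDC2 in spleen (2.88 ± 0.69 SE, edgeR adjusted p = 0.00235) and not in kidney (0.91 ± 0.52 SE, edgeR adjusted p = 0.21). The test of that difference gave -1.97 ± 0.83 SE (edgeR adjusted p = 0.203).

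Many class I genes respond to interferon, so interferon response genes were set beside them. In kidney cDC1 against cDC2, 7 of these 11 genes were lower and 3 higher, where 15.4% and 12.5% of all genes were, with a median of -1.28, while Tap1, Psmb8 and Psmb9 were higher. Ifit3, Ifit1 and Oas2, antiviral effectors, were lower (-2.91, -2.86 and -4.26, edgeR adjusted p = 7.19e-08, 4.20e-06 and 1.73e-06), as was the GTPase Gbp2 (-2.20, edgeR adjusted p = 4.38e-09), whose difference from spleen was itself called (-1.74, edgeR adjusted p = 0.0023). Among those higher were the transcription factor Irf7 and the GTPase Mx1 (1.83 and 0.76, edgeR adjusted p = 9.12e-06 and 0.0274). In spleen 6 were lower and 1, Mx1, higher, where 10.7% and 9.88% of all genes were, with a median of -0.78, and the antiviral gene Rsad2 was at -2.77. The kidney minus spleen difference of folds was called above 0 for 2 of the 11 genes, Isg15 and Irf7. It was called below 0 for 3, Gbp2, Gbp3 and Irf1, where 6.26% of all genes were called in either direction. Summed over the list, kidney cDC1 libraries held 894 to 1342 CPM and kidney cDC2 libraries 669 to 1378 CPM, which overlapped. Whether interferon has a part in the class I differences was not tested.

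**Figure D5:**
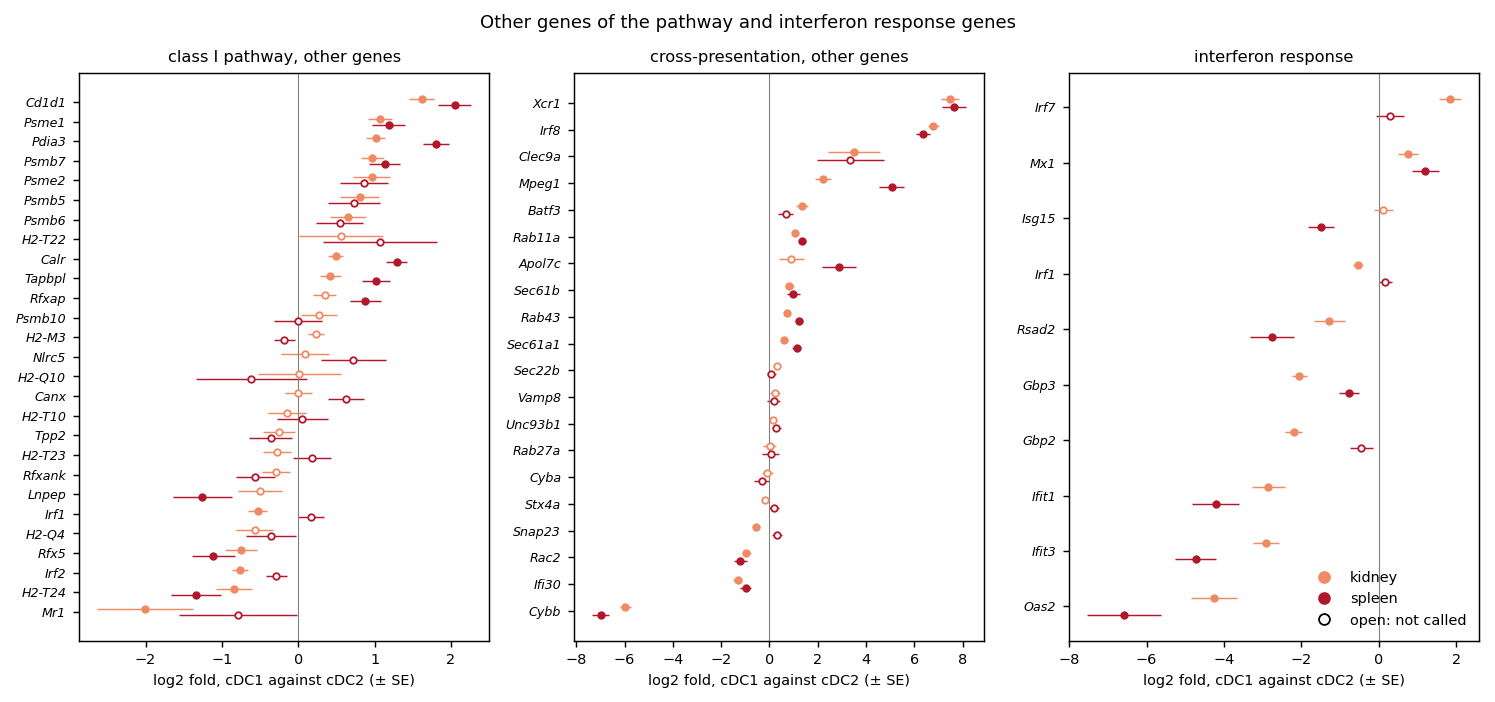
Log2 folds in cDC1 against cDC2, with standard errors, of the other class I pathway genes, cross-presentation genes and interferon response genes in kidney (orange) and spleen (red). Filled points were called and open points were not. Pdia3 and Calr lie at 1.01 and 0.49 in kidney and 1.81 and 1.29 in spleen, and Ifit1, Ifit3 and Oas2 lie below -2 in both.

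Correlations across the 9 population means are given as a description, and these means share libraries and scaling with the tests above. Members other than Tapbp and Erap1 fell into opposite sets. On log2 CPM, Tap1 followed Tap2 (Pearson r = 0.93) and Psmb9 (0.90), Psmb8 followed Psmb9 (0.92) and Psmb9 followed Wdfy4 (0.90). B2m ran against Wdfy4 (-0.98) and H2-K1 against Psmb9 (-0.90), while B2m and H2-K1 ran together (0.85). Tapbp and Erap1 followed neither set closely, with a largest r of 0.44 for Tapbp (with Tap2) and 0.31 for Erap1 (with H2-D1). Within populations the picture differed: over the 33 libraries as deviations from their population means, B2m and Psmb9 correlated at 0.86 and B2m and Wdfy4 at -0.38. B2m and Psmb9 are short transcripts and Wdfy4 a long one, and the deviations of the pair of libraries that stood apart by transcript length are part of these values.

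The genes whose population means were most like those of 3 members were found by Pearson r on log2 CPM over the 9 populations, among 7328 genes that varied at least 2-fold and reached 10 CPM. For Wdfy4 they were Dnajc8 (0.99), Wdr86 (0.98), Rbbp7 (0.98), Pkib (0.98) and Nsmaf (0.98). For Tap1 they were Phf10 (0.97), Ppa1 (0.97), Tshz1 (0.97), Efr3a (0.96) and Met (0.96). For H2-K1 they were Trim8 (0.96), Mtus1 (0.95), Acbd4 (0.95), Necap1 (0.94) and Vmp1 (0.94). Wdr86 ran from 0.10 CPM in the lowest population to 51.4 in spleen cDC1, and Trim8, of the H2-K1 set, from 116 to 299 CPM in F4/80hi YFP- cells.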

How the data were processed

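RNA-seq was done on RNA from sorted cells (PicoPure extraction, SMARTseq v4 cDNA and MicroPlex v2 libraries, per the labels' protocols). STAR, RSEM and the mm10 build are named in the submitters' processing notes; versions are not given in the sources used here. The deposited STAR counts of reads per gene, the deposited RSEM expected counts and the deposited TPM values were used, and the deposited joint TPM table equalled the per-library TPM for 24027 names, with a largest difference of 0.0. Unstranded STAR counts were tested, since the kit marks no strand. Reads that STAR assigned to no gene, including 7.42% to 16.4% that mapped to several places, were left out of library sizes.

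All 33 libraries entered one edgeR 4.0.16 quasi-likelihood fit (R 4.3.3) with group and library-name prefix (12 BS, 21 GS) as terms, TMM scaling and filterByExpr (minimum count 10, total 15), with Benjamini-Hochberg adjustment over 14258 genes and a threshold of 0.05. The fit was tested on simulated data. DESeq2 1.42.0 and limma 3.58.1 on log2(TPM + 1) and log2(TPM + 0.1) were alternatives, RSEM counts being rounded first. TMM-scaled CPM are shown beside folds and TPM for levels. Intervals are 95%.

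Libraries share sort codes, and replicates were numbered in accession order. Same-code libraries deviated together, with every correlation over 0.1, in spleen cDC1 against cDC2 (0.126 to 0.299) and kidney against spleen cDC2 (0.101 to 0.124). The same held for F4/80hi YFP+ against YFP- (0.112 to 0.426) and RPM against spleen cDC1 (0.105 to 0.241). In those comparisons the code was taken to pair libraries, but only as a block in an alternative fit. The main fit and its counts of calls left this pairing out.

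The members and lists were chosen with earlier results of these data known. Named list genes are the 4 called with the largest change and at least 10 CPM. Calr in kidney, Nlrc5, Rab43, Apol7c, Irf7, Mx1 and the single proteasome subunits were chosen after their values were seen. So was the naming of the class I list genes called lower in kidney cDC1. A gene counted in the lists is not reported here by name or in the plot of the lists. Coordinates are from GENCODE on GRCm38 and promoter sequences from RefSeq on GRCm38.p6.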

Additional observations from a re-analysis of the deposited data

Results flagged for a closer look

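Single libraries stood apart from their group in 4 of 33 tests. A flag rests on the gap to the nearest other library as a share of the group's range, which was 0.767 to 0.889 here. A chance rate of about 1 in 20 would hold for independent tests. These tests share libraries, so no excess over chance is read from this rate. H2-D1 was at 4985 TPM in CD11bhi YFP+ replicate 5, against 3454 to 3691 TPM in the other 4 libraries. Tap1 was at 227.2 TPM in the same library, against 140.3 to 160.6 TPM in the others. Psmb8 was at 2288 TPM in kidney cDC1 replicate 4, against 1599 to 1675 TPM in the other 5, and this library is 1 of the pair with high levels of short transcripts. The mean log2 ratio of immunoproteasome to constitutive subunits was 1.557 in kidney cDC2 replicate 2, against 1.164 to 1.217 in the other 4.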

How the results depend on the processing

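Leaving out any 1 library changed no member's call in cDC1 against cDC2 of kidney or spleen, in RPM against spleen cDC1, in CD11bhi YFP+ cells against kidney cDC1 or cDC2, or in either comparison of YFP+ with YFP- cells. Of all member folds recomputed with 1 library left out, 1241 kept their side of the threshold, 10 gained a call and 29 lost one. Requiring in addition an absolute log2 fold of 1 left 3 members in kidney cDC1 against cDC2, 4 in CD11bhi YFP+ and 4 in F4/80hi YFP+ cells against kidney cDC1, 1 in RPM against spleen cDC2, 1 in kidney against spleen cDC2, 0 in kidney against spleen cDC1 and 0 in F4/80hi YFP- against RPM. The cause of the following changes was not tested.

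Kidney against spleen cDC1, with 1 member called, gave 0 to 3 with 1 library left out, 2 by DESeq2, 2 with library size alone, 7 on either TPM scale, 0 with no prefix term, 3 with the sort code as a replicate block and 2 without the pair of libraries that stood apart. The 2 without the pair were H2-D1 and Tap2, both lower in kidney. Kidney against spleen cDC2, with 2, gave 1 to 4 with 1 library left out, 4 with library size alone, 8 on either TPM scale, 1 with no prefix term, 4 with the block and 1 without the pair. F4/80hi YFP- against RPM, with 2, gave 0 to 2 with 1 library left out, 1 with no filter and 1 when only the libraries compared were fitted. CD11bhi YFP+ against F4/80hi YFP+, with 2, gave 0 to 2, then 5 on either TPM scale, 1 with no prefix term and 4 from the libraries compared alone. CD11bhi YFP+ against kidney cDC2, with 1, gave 2 on either TPM scale. F4/80hi YFP+ against kidney cDC2, with 4, gave 4 to 5, then 8 on either TPM scale and 2 from the libraries compared alone. F4/80hi YFP+ against kidney cDC1, with 8, gave 7 to 8. RPM against spleen cDC2, with 5, gave 2 to 5, and 3 with no filter. The interaction, with 0, gave 0 to 1, and 1 (H2-D1) by DESeq2, on RSEM counts, on log2(TPM + 1), with the block and without the pair. The subunit ratio difference of 0.10 ran from 0.0754 to 0.174 with 1 library left out and was -0.0616 within BS libraries.

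Directions reversed mostly on TPM. On log2(TPM + 1), kidney against spleen cDC2 gave B2m -0.37, H2-D1 -0.10, H2-K1 -0.41, Psmb9 -0.39, Tap1 -0.75 and Tap2 -0.75, and on log2(TPM + 0.1) B2m -0.37, H2-D1 -0.10, H2-K1 -0.41, Psmb9 -0.39, Tap1 -0.76 and Tap2 -0.75. Tap2 was at -0.41 with library size alone. F4/80hi YFP+ against kidney cDC2 gave H2-D1 0.35 and H2-K1 0.40 on both scales, and RPM against spleen cDC2 gave Psmb8 -0.43 on both and Tapbp -0.0774 and -0.0776. TPM moved the median of all genes by -0.55 in kidney against spleen cDC2, -0.27 in kidney against spleen cDC1, -0.28 in CD11bhi YFP+ against F4/80hi YFP+, 0.21 in F4/80hi YFP+ against kidney cDC2 and -0.22 in RPM against spleen cDC2. The share of calls that were higher moved from 44.7% to 57.7% in kidney cDC1 against cDC2, from 48.0% to 32.0% in spleen, from 61.2% to 25.6% and from 61.7% to 14.5% between tissues for cDC1 and cDC2, from 64.7% to 37.2% in CD11bhi YFP+ against F4/80hi YFP+, from 60.2% to 47.7% in CD11bhi YFP+ against kidney cDC1, from 42.1% to 66.9% and from 48.5% to 61.7% in F4/80hi YFP+ against kidney cDC2 and cDC1, from 51.4% to 34.03% (pseudocount 0.1) in RPM against spleen cDC2 and from 32.5% to 71.3% for the interaction. Over all genes, CD11bhi YFP+ against YFP- gave 977 calls, 1761 by DESeq2 and 0 from those 7 libraries alone, and F4/80hi YFP+ against YFP- gave 1 call, 12 by DESeq2 and 8 on log2(TPM + 1).

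With the sort code as a block, Wdfy4 was called lower in F4/80hi YFP- cells than in RPM (-0.62, edgeR adjusted p = 0.000238). Deviations of same-code libraries in that comparison correlated at 0.132, 0.022 and 0.264, so not every value was over 0.1. Depth did not limit the members: Erap1, the scarcest by reads, had 53863 reads over all libraries.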
